A study of Mus musculus with 4 samples.

Results

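The genes examined here were 4 simple keratin genes (Krt7, Krt8, Krt18 and Krt19) and 6 genes associated with the transitional state between alveolar type II and type I cells (Cldn4, Sfn, Clu, Gdf15, Cdkn1a and Lgals3). They were chosen by name, with earlier results of these data known. All 10 were found among the 25759 gene symbols of the count table and among the 13306 symbols that passed the filter on low counts. RNA came from alveolar epithelial type II cells, the surfactant-secreting cells of the alveolus, of C57BL/6 mice aged 14 weeks. The tested mice carried a conditional active mTOR transgene (mTOR Tg, genotype Sftpc-mTOR transgenic, 2 libraries) and were set against wild-type mice (WT, 2 libraries). The labels join the transgene to Sftpc, the gene of surfactant protein C, and describe neither the construct nor the transgenic line further. They do not say whether a library came from 1 mouse or a pool, so p-values measure only the spread between these libraries.

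Simple keratins form the intermediate filaments of single-layered epithelia. A type II keratin (Krt7 or Krt8) pairs with a type I keratin (Krt18 or Krt19) to build the filament. In mouse lung after injury, type II cells on the way to type I cells pass through a state with high Krt8, and Cldn4, Sfn, Clu, Gdf15, Cdkn1a and Lgals3 are commonly used to mark it. The airway epithelium also contains simple keratins, claudin 4 and clusterin, and mesothelium contains simple keratins. mTOR is the kinase that couples nutrients and growth factors to protein synthesis. The comparison asks whether transcripts of these genes differ in type II cells when mTOR is active.

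The library totals were 21972124 and 20273396 counts in mTOR Tg replicates 1 and 2, against 18146693 and 19018785 counts in WT replicates 1 and 2. Normalised CPM, the usual read count scaled to a common library size, used the library total and a TMM factor of 0.928 to 1.04. Counts of the 10 genes ran from 238 to 16257 per library, far above the 3 counts (0.137 to 0.165 CPM) taken as the limit of detection. One library, mTOR Tg replicate 1, stood apart. Pearson's r of its log2 CPM with each other library, taken over genes as a description, was 0.951 to 0.955, while the remaining pairs of libraries had r of 0.983 to 0.988. Summed type II cell markers were at 104262 and 133051 CPM of the raw library totals in mTOR Tg, against 128560 and 110360 CPM in WT. The labelled cell type was thus present in every library. In mTOR Tg replicate 1, however, summed markers of airway club cells were higher still, at 170296 CPM. Most of that sum came from Scgb1a1, with 3043820 counts, and most of the type II sum there from Sftpc, with 1479050 counts. Both genes are named after their values were seen. The sums do not compare numbers of cells. Results that rest on mTOR Tg replicate 1 are therefore given with and without it.

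Promoter sequences help to place these genes, and 8 of the 10 had an entry in the RefSeq table on GRCm38.p6 (all but Krt19 and Clu). The 250 bases before the start annotated in RefSeq are shown for 5 genes. That start can differ from the gene spans printed below, which came from another annotation. The Krt7 window lies wholly inside its span, and those of Krt8, Krt18 and Cdkn1a lie partly inside theirs. Krt7, Krt8 and Krt18 were chosen as keratin genes on chromosome 15 whose transcripts were high in mTOR Tg replicate 1 alone. Cldn4 was added as a gene with the same pattern. Cdkn1a was chosen as the best known p53 target among the 10, at the more distal of its 2 starts. Capitals mark matches to an AP-1 site (TGANTCA), a GC box (GGGCGG) or a pair of p53 core letters (CATG on both sides of a 6-base spacer), searched on both strands, with no match overlapping another. The letters were chosen after the sequences had been seen. The windows, printed 5′ to 3′, are chr15:101412153-101412402 on the plus strand, chr15:102004343-102004592 on the minus strand, chr15:102027966-102028215 on the plus strand, chr5:134946935-134947184 on the minus strand and chr17:29090729-29090978 on the plus strand, in the order printed.
Krt7: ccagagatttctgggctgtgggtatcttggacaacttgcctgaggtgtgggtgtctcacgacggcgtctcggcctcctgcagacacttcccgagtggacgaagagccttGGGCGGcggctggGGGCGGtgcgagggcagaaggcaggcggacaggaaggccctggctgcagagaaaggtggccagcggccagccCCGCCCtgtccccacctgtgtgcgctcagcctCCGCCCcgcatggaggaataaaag
Krt8: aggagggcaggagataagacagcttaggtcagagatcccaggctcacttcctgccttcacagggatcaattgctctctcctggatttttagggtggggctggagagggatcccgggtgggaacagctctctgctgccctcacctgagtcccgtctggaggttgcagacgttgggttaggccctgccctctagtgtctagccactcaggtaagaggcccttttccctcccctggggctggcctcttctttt
Krt18: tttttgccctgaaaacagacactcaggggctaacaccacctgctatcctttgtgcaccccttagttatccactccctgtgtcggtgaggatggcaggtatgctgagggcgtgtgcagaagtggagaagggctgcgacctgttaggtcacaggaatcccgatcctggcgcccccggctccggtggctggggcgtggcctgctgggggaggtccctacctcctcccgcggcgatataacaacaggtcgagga
Cldn4: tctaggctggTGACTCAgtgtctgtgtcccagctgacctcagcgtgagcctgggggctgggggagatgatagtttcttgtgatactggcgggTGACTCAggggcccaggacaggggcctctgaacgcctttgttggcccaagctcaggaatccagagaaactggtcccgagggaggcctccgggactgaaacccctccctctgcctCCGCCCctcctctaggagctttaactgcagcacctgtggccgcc
Cdkn1a: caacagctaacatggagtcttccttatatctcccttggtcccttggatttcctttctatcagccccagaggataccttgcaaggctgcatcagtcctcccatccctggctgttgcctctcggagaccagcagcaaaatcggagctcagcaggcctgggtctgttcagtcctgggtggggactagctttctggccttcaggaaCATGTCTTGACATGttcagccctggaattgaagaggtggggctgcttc

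The window of Cldn4 held the AP-1 letters 2 times, beginning 158 and 240 bases before the start, and was the 1 member window of 10 to hold them. In all, 6.75% of 32851 mouse promoter windows of the same length held these letters. The p53 letters were found in the window of the distal Cdkn1a start, beginning 48 bases before it, and in 0.49% of all windows. The GC box was found in 4 of the 10 member windows, 4 times in that of Krt7, and in 32.7% of all windows. No match was found in the windows of Krt8 and Krt18. A match of letters is a description and shows no binding.

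All 4 simple keratin transcripts were 1.82- to 2.32-fold above the WT mean in mTOR Tg replicate 1, while in mTOR Tg replicate 2 they lay close to WT. None passed the test between genotypes. Krt8 (chromosome 15, 101996698 to 102004482), the type II keratin that gives the transitional state its name, was at 798 and 390 CPM in mTOR Tg, against 424 and 425 CPM in WT. Its partner Krt18 (chromosome 15, 102028180 to 102032027) was at 340 and 186 CPM in mTOR Tg and at 188 and 185 CPM in WT. In both cases the WT libraries were nearly equal and 1 mTOR Tg library alone was high, so the groups overlapped. Krt19 (chromosome 11, 100140810 to 100148665), the type I keratin of ducts and airways, was at 374 and 153 CPM in mTOR Tg, against 176 and 173 CPM in WT. Krt7 (chromosome 15, 101411043 to 101430313), a type II keratin of airway and glandular epithelium, was at 272 and 125 CPM in mTOR Tg and at 108 and 126 CPM in WT. Krt8 and Krt19 in mTOR Tg replicate 2 lay below both WT libraries, and Krt7 and Krt18 between them.

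**Figure D1:**
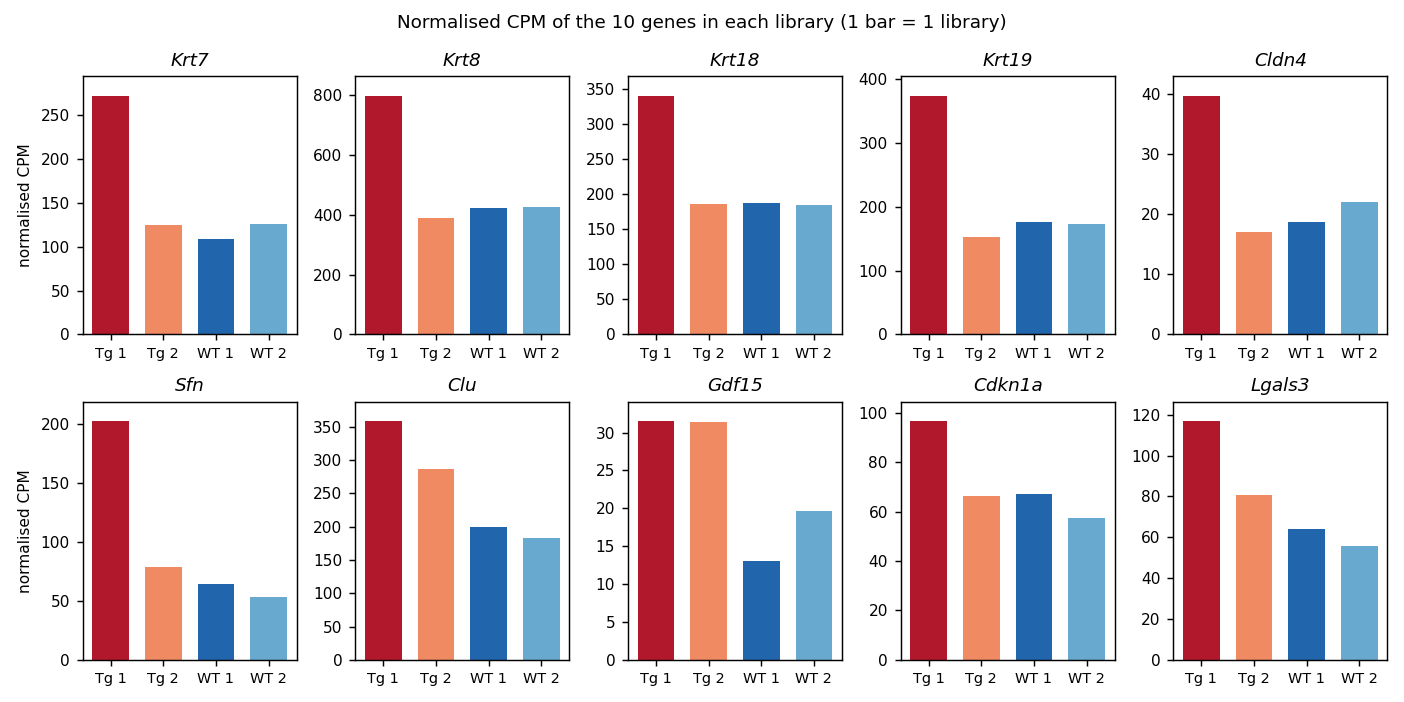
Normalised CPM (y axis, from 0, scaled per gene) of the 10 genes in mTOR Tg replicates 1 and 2 (red) and WT replicates 1 and 2 (blue), with 1 bar per library. Krt7, Krt8, Krt18, Krt19 and Cldn4 are high in mTOR Tg replicate 1 alone, whereas Sfn, Clu, Gdf15 and Lgals3 are higher in both mTOR Tg libraries than in both WT libraries.

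The log2 fold changes of mTOR Tg over WT were 0.76 (SE 0.39) for Krt7, 0.48 (SE 0.36) for Krt8, 0.50 (SE 0.32) for Krt18 and 0.59 (SE 0.42) for Krt19. In edgeR's quasi-likelihood test all 4 had an adjusted p of 0.860. That test called 0 of 13306 genes higher (0%) and 0 lower (0%), with 327 genes (2.46%) at an unadjusted p under 0.05 and 0 genes called by limma-voom. With mTOR Tg replicate 2 left out, the log2 fold changes were 1.21, 0.91, 0.87 and 1.10 in the same gene order. Without mTOR Tg replicate 1 they were 0.09, -0.12, -0.0044 and -0.19, so that 3 of the 4 changed sign. In mTOR Tg, Krt8 averaged 594 ± 288 CPM, against 425 ± 0.869 CPM in WT (SD, n = 2 each), and the difference of the means was smaller than the spread within mTOR Tg.

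Compared per length of transcript, Krt8 was the most abundant of the 10 genes in both genotypes, at 303 ± 147 CPM per kb in mTOR Tg and 217 ± 0.444 CPM per kb in WT (SD, n = 2 each). Krt18 followed at 183 ± 76.0 CPM per kb in mTOR Tg and 130 ± 1.41 CPM per kb in WT. Krt19 was at 167 ± 99.2 and Clu at 178 ± 28.2 CPM per kb in mTOR Tg, against 111 ± 1.18 and 105 ± 6.15 CPM per kb in WT. Neighbours in this order, Krt18, Krt19 and Clu in mTOR Tg and Krt19 and Clu in WT, did not differ beyond their spread. Lgals3, Sfn, Cdkn1a and Krt7 formed a lower tier, at 69.6, 87.3, 39.1 and 48.5 CPM per kb in mTOR Tg and at 42.1, 36.5, 29.9 and 28.6 CPM per kb in WT. Cldn4 and Gdf15 were the least abundant, at 15.6 and 20.4 CPM per kb in mTOR Tg, against 11.2 and 10.6 CPM per kb in WT. The place of Krt7 rests on its annotated principal transcript of 4094 bases, where those of the other 9 genes have 1419 to 2080 bases.

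The proportions among the keratins varied less than their sum. Added up, the 4 reached 948 and 456 CPM per kb in mTOR Tg replicates 1 and 2, against 485 and 487 CPM per kb in WT. The ratio of Krt8 to Krt18, both per kb, was 1.72 and 1.54 in mTOR Tg, against 1.66 and 1.69 in WT. For Krt19 over Krt18 the ratio was 1.0 and 0.750 in mTOR Tg and 0.854 in both WT libraries. The ratio of Krt7 to Krt8 was 0.163 and 0.153 in mTOR Tg, above 0.122 and 0.142 in WT. Of these 3 ratios only Krt7 over Krt8 separated the genotypes, and an exact two-sided permutation test of 2 libraries against 2 cannot go below p = 0.33.

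**Figure D2:**
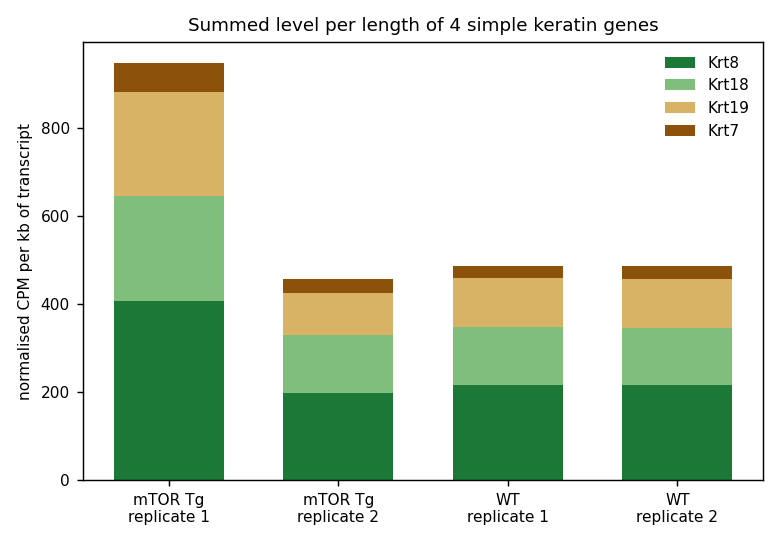
Level per length (y axis, normalised CPM per kb of transcript) of Krt8, Krt18, Krt19 and Krt7 stacked for each library. The total is 948 in mTOR Tg replicate 1, 456 in mTOR Tg replicate 2, and 485 and 487 in WT, with similar proportions in each bar.

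Most other keratin genes were scarce or undetected. Of 46 further keratin symbols with a row, 8 could be tested, 6 with a positive and 2 with a negative log2 fold change, and 23 had no count in any library. Krt23, a type I keratin gene, was the most abundant of them, at 98.6 and 115 CPM in mTOR Tg, against 121 and 101 CPM in WT. Krt80 was at 17.1 and 13.5 CPM in mTOR Tg and at 14.3 and 12.2 CPM in WT. Krt10, Krt87 and Krt1 had log2 fold changes of 0.26 (SE 0.33), 0.50 (SE 0.36) and 0.41 (SE 0.46). The basal cell keratins were scarce. Krt5 was at 1.82 and 1.72 CPM in mTOR Tg and at 0.494 and 2.32 CPM in WT, and Krt15 was at 1.72 and 2.44 CPM in mTOR Tg, against 0.933 and 7.02 CPM in WT. Krt17 was at 0.932 and 0.862 CPM in mTOR Tg, against 0.165 and 0.809 CPM in WT.

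Among the desmosome and cytolinker genes, which anchor keratin filaments, 2 of 9 had a positive and 7 a negative log2 fold change, with a median of -0.09 against 0.01 over all genes tested. None passed the test. Ppl, Dsp and Dsc2, encoding periplakin, desmoplakin and desmocollin 2, had log2 fold changes of -0.27 (SE 0.20), -0.24 (SE 0.23) and -0.35 (SE 0.35). Dsp was at 91.5 and 128 CPM in mTOR Tg, against 124 and 135 CPM in WT. In mTOR Tg replicate 1, where keratin transcripts were highest, Dsp was at its lowest, while Evpl and Pkp3 (envoplakin and plakophilin 3, named after their values were seen) were at their highest, at 59.5 and 42.2 CPM. These values carry no correction for transcript length. In mTOR Tg replicate 1 levels followed length over all genes, as given below.

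Cldn4 (chromosome 5, 134945119 to 134946934), a tight junction claudin induced in the transitional state, followed the keratins. It was at 39.8 and 17.0 CPM in mTOR Tg, against 18.7 and 22.0 CPM in WT, with a log2 fold change of 0.48 (SE 0.42, adjusted p = 0.860 in edgeR). One mTOR Tg library was the highest of the 4 and the other the lowest. Without mTOR Tg replicate 1 the value was -0.26. Of the other claudins listed with it, Cldn7 was at 214 and 109 CPM in mTOR Tg and at 111 and 119 CPM in WT, again with the groups overlapping.

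Measured by the distance between log2 CPM profiles over the 4 libraries, Krt18, Krt19 and Cldn4 lay nearest to Krt8 among the 10, at 0.12, 0.19 and 0.21. Of 9102 other genes with a mean of at least 10 CPM, 51 lay nearer to Krt8 than Krt18 did. Gdf15 was the farthest, at 1.01. The 5 genes nearest to Krt8 were Kif6, Gas2l2, Ndufa11, Abhd14a and Ctu2, at 0.03 to 0.06. Kif6, for instance, was at 17.8 and 8.52 CPM in mTOR Tg, against 9.55 and 9.45 CPM in WT. All 5 were highest in mTOR Tg replicate 1 and lowest in mTOR Tg replicate 2, as Krt8 was. That likeness follows from picking them by their distance to Krt8 over these same libraries.

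Clu, Lgals3, Sfn and Gdf15 differed from the keratins in that the groups did not overlap, with every mTOR Tg value above every WT value. Clu (chromosome 14, 65968483 to 65981547), which encodes the secreted chaperone clusterin, was at 359 and 287 CPM in mTOR Tg, against 199 and 183 CPM in WT. Its log2 fold change was 0.76 (SE 0.21, adjusted p = 0.860 in edgeR). Lgals3 (chromosome 14, 47367751 to 47386160), which encodes the sugar-binding lectin galectin 3, was at 117 and 80.5 CPM in mTOR Tg, against 64.0 and 55.5 CPM in WT, a log2 fold change of 0.72 (SE 0.25). For both genes the lower mTOR Tg library exceeded the higher WT library by more than the WT libraries differed.

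Sfn (chromosome 4, 133600556 to 133602168), which encodes the cell cycle inhibitor 14-3-3 sigma, was at 203 and 78.7 CPM in mTOR Tg, against 64.8 and 52.9 CPM in WT. It had the largest log2 fold change of the 10, at 1.26 (SE 0.46, adjusted p = 0.860 in edgeR), but mTOR Tg replicate 1 was 2.58-fold above replicate 2. Gdf15 (chromosome 8, 70629393 to 70632456), a stress-induced secreted cytokine, was at 31.5 and 31.4 CPM in mTOR Tg, against 13.1 and 19.7 CPM in WT. The mTOR Tg libraries were nearly equal here and the WT libraries were not. The 95% exact Poisson intervals, which cover counting error only, were 29.1 to 34.1 CPM across both mTOR Tg libraries, against 11.5 to 14.8 and 17.8 to 21.7 CPM in WT. The log2 fold change of Gdf15 was 0.94 (SE 0.26, adjusted p = 0.860 in edgeR).

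Cdkn1a (chromosome 17, 29090976 to 29100727), the p53-induced inhibitor of cyclin-dependent kinases shown above with its promoter, overlapped between genotypes. It was at 96.7 and 66.1 CPM in mTOR Tg, against 67.3 and 57.3 CPM in WT, a log2 fold change of 0.39 (SE 0.25, adjusted p = 0.860 in edgeR). Replicate 2 of mTOR Tg lay just below WT replicate 1. Without mTOR Tg replicate 1 the log2 fold change was 0.09, and without mTOR Tg replicate 2 it was 0.63.

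**Figure D3:**
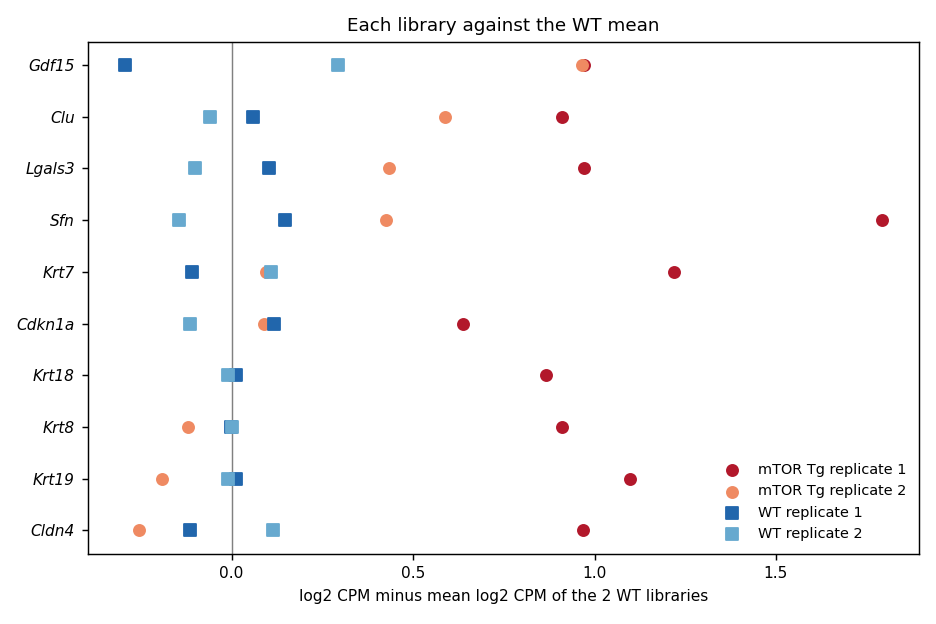
Log2 CPM of each gene minus the mean of the WT libraries (x axis), with mTOR Tg libraries as circles and WT libraries as squares, and genes ordered by mTOR Tg replicate 2. Replicate 1 of mTOR Tg lies right of the WT squares for every gene, and replicate 2 does so for Gdf15, Clu, Lgals3 and Sfn.

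The 10 genes and the lists below were chosen with earlier results of these data known, so shares set beside them are descriptions only. All 10 genes had a positive log2 fold change, where 50.9% of all genes tested did. Their median was 0.66, against 0.01 over all genes. Every one of them was highest in mTOR Tg replicate 1, which was the highest library for 40.8% of genes. Relative to the WT mean, the 10 had median log2 differences of 0.97 and 0.09 in mTOR Tg replicates 1 and 2. Without overlap between genotypes, mTOR Tg was higher in 4 of the 10, beside 17.6% of all genes, and lower in 0 of the 10, beside 17% of all genes. At an unadjusted p under 0.05 in edgeR stood the same 4, beside 2.46% of all genes. The values were 0.0129, 0.0137, 0.0302 and 0.0352 for Gdf15, Clu, Lgals3 and Sfn, each with an adjusted p of 0.860 in edgeR. Both counts rest on the same 4 libraries, so the second adds no separate evidence.

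Leaving out a library leaves a group with 1 library, whose spread is then taken to equal that of the other group, so the calls that follow hold no replication of mTOR Tg. Without mTOR Tg replicate 1, the edgeR test called Clu (log2 fold change 0.59, adjusted p = 0.00593) and Gdf15 (0.94, adjusted p = 0.00677) higher, where 1.25% of 13602 genes were called higher and 0.948% lower. Sfn (0.42, adjusted p = 0.119) and Lgals3 (0.43, adjusted p = 0.0822) were not called in the same edgeR fit. Without mTOR Tg replicate 2, all 10 were called higher, with edgeR adjusted p-values of 1.16e-07 to 0.00064, beside 21.8% of 13634 genes called higher and 23.6% called lower. Without WT replicate 1 or 2 none of the 10 was called. Gdf15 then had a log2 fold change of 0.68 or 1.27, so that this value depended on which WT library stayed.

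**Figure D4:**
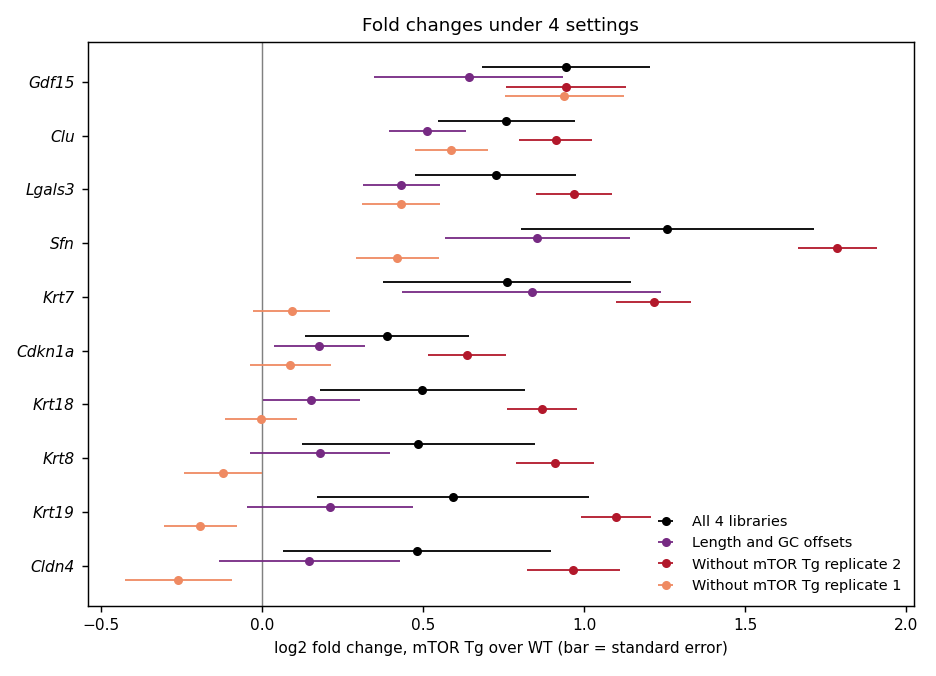
Log2 fold change of mTOR Tg over WT (x axis, bars are standard errors) for each gene with all libraries, with length and GC offsets, and with either mTOR Tg library left out. Gdf15 and Clu stay right of 0 in all 4, at 0.51 or more, while Krt8, Krt18, Krt19 and Cldn4 lie at or left of 0 without mTOR Tg replicate 1.

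Base composition and length were shared features that the choice of genes did not use. The principal transcripts of all 10 genes had a GC content above the median of 50.6% over genes tested, from 52.3% in Krt7 to 61.3% in Gdf15. Those of 9 of the 10 were shorter than the median of 2996 bases. In mTOR Tg replicate 1 the median log2 difference from WT was 0.30 over genes with transcripts shorter than that median and -0.33 over the others, against -0.0030 and 0.0042 in replicate 2. The genes were therefore refitted with offsets that remove each library's trend on length and GC. The log2 fold changes then were 0.18 (SE 0.22) for Krt8, 0.15 (SE 0.15) for Krt18, 0.21 (SE 0.26) for Krt19 and 0.15 (SE 0.28) for Cldn4.

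Krt7 stayed at 0.84 (SE 0.40) with these offsets, which for this gene rest on its annotated principal transcript of 4094 bases. Whether that length holds in these cells was not tested. Sfn was at 0.85 (SE 0.29), Gdf15 at 0.64 (SE 0.29), Clu at 0.51 (SE 0.12), Lgals3 at 0.43 (SE 0.12) and Cdkn1a at 0.18 (SE 0.14). After correction Clu was at 283 and 307 CPM in mTOR Tg, against 213 and 201 CPM in WT, and Lgals3 at 89.4 and 87.3 CPM in mTOR Tg, against 68.8 and 62.2 CPM in WT. For Clu and Lgals3 the mTOR Tg libraries were closer together than without the offsets. For Gdf15 and Krt7 they were farther apart. Gdf15 was then at 23.2 and 34.1 CPM in mTOR Tg, against 14.4 and 22.3 CPM in WT, which left mTOR Tg replicate 1 just above WT replicate 2. Krt7 was at 288 and 122 CPM in mTOR Tg, against 107 and 123 CPM in WT. None of the 10 passed the test with offsets, and edgeR's adjusted p-values were 0.909 to 0.945. Values and medians of the other gene lists are given without offsets, so the trend of mTOR Tg replicate 1 remains in them.

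Marker transcripts of several other cell types also differed between libraries. Club cells are secretory cells of the airway, and their summed markers were at 170296 CPM of the raw totals in mTOR Tg replicate 1 and 61125 CPM in replicate 2, against 89657 and 96478 CPM in WT. Scgb1a1 made up most of each of these sums. Summed ciliated cell markers were at 2912 and 1336 CPM in mTOR Tg, against 1253 and 1482 CPM in WT. The median log2 difference from the WT mean was 0.73 and -0.45 in mTOR Tg replicates 1 and 2 over 7 club cell markers, and 1.22 and -0.04 over 9 ciliated cell markers. Krt8, Krt19, Cldn4 and the club cell sum were all highest in mTOR Tg replicate 1 and lowest in replicate 2. The part of airway cells in the keratin values was not tested, and in bulk RNA fewer cells of a type cannot be told apart from less RNA per cell.

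Mesothelial markers were higher in both mTOR Tg libraries by their median over 6 genes tested. The median lay 1.27 and 0.78 above the WT mean on the log2 scale in replicates 1 and 2. Of the 6, 4 lay above WT without overlap, beside 17.6% of all genes. Upk3b, a mesothelial uroplakin gene, was at 7.65 and 7.61 CPM in mTOR Tg, against 2.47 and 3.49 CPM in WT. Msln, the most abundant of the 6, overlapped, at 18.9 and 9.62 CPM in mTOR Tg, against 5.55 and 12.2 CPM in WT. Muc16 overlapped as well, with a log2 fold change of -0.31 (SE 1.21). The summed mesothelial level was low, at 30.7 and 22.8 CPM in mTOR Tg and 10.3 and 20.9 CPM in WT. Endothelial markers went the other way, with negative log2 fold changes in 6 of 6. Of these, 5 lay below WT without overlap, beside 17% of all genes. Summed endothelial markers were at 69.6 and 61.2 CPM in mTOR Tg, against 113 and 123 CPM in WT. Kdr made up most of each sum, with 1058 and 731 counts in mTOR Tg, against 1445 and 1670 in WT. Summed fibroblast markers overlapped, at 31.9 and 61.9 CPM in mTOR Tg and 46.3 and 31.8 CPM in WT. Summed basal cell markers were at 4.41 and 6.36 CPM in mTOR Tg and at 1.76 and 11.6 CPM in WT. For Lgals3, which macrophages also express, summed macrophage markers were at 11.0 and 7.84 CPM in mTOR Tg and at 8.93 and 7.57 CPM in WT. Among 10 macrophage markers, Adgre1 and C1qb had no count in any library, and Marco, Siglecf and C1qa had at most 1. Csf1r and Cd68 made up most of the sum, with 162 and 71 counts of Csf1r in mTOR Tg, against 59 and 81 in WT, and 70 and 77 counts of Cd68 in mTOR Tg, against 85 and 50 in WT. Lgals3 itself was at 55.5 to 117 CPM. In mTOR Tg replicate 2, where Gdf15, Clu, Lgals3 and Sfn were above both WT libraries, the club cell sum was below both, the ciliated cell sum between them and the mesothelial sum above both. The part of these other cell types in the values of the 10 genes was not tested. Upk3b, Msln, Muc16 and Kdr are named after their values were seen, as are Csf1r and Cd68.

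A further 21 genes of the transitional state were listed apart from the 10, and 20 could be tested. Positive log2 fold changes were found in 14 and negative ones in 6, with a median of 0.28 against 0.01 over all genes, and none passed the test. The genotypes did not overlap in 10 of the 20, with mTOR Tg higher in 9 and lower in 1, beside the 17.6% and 17% of all genes. Among the 6 negative ones, Hif1a was the most negative, at -0.51 (SE 0.40), and is named after its values were seen. The genes with the smallest p, Plaur, Myc and Areg, were each higher in mTOR Tg and were picked by that p. Plaur, the urokinase receptor gene, was at 4.42 and 3.35 CPM in mTOR Tg, against 1.21 and 1.06 CPM in WT. Its log2 fold change was 1.77 (SE 0.34, adjusted p = 0.860 in edgeR). Areg, which encodes the EGF receptor ligand amphiregulin, was at 33.2 and 23.3 CPM in mTOR Tg, against 17.1 and 17.4 CPM in WT. The growth-promoting transcription factor gene Myc was at 5.94 and 5.55 CPM in mTOR Tg, against 3.40 and 3.18 CPM in WT.

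Of the 10 genes, Cdkn1a, Gdf15 and Sfn are known p53 targets, and 18 of 20 further p53 targets could be tested. Of these, 8 had a positive and 10 a negative log2 fold change, with a median of -0.10, and none passed the test. Plk2, a polo-like kinase gene, was at 44.9 and 32.3 CPM in mTOR Tg, against 60.8 and 65.9 CPM in WT, a log2 fold change of -0.72 (SE 0.24). Mdm2, which encodes the ubiquitin ligase of p53, was at 47.1 and 51.9 CPM in mTOR Tg, against 55.7 and 58.6 CPM in WT, and is named after its values were seen. The death receptor gene Fas was at 5.79 and 3.64 CPM in mTOR Tg and at 3.02 and 2.88 CPM in WT. Phlda3, which encodes an inhibitor of AKT, was at 37.4 and 12.2 CPM in mTOR Tg, against 11.2 and 13.0 CPM in WT. Without overlap between genotypes, mTOR Tg was higher in 2 and lower in 4 of the 18, near the 17.6% and 17% of all genes.

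Of the 5 other CDK inhibitor genes tested, 3 had a positive and 2 a negative log2 fold change. Cdkn2b, which encodes p15, was at 13.2 and 10.2 CPM in mTOR Tg, against 8.78 and 8.69 CPM in WT, with the groups apart. It was the 1 gene of the 5 without overlap, beside 17.6% of all genes higher and 17% lower. Cdkn1b (p27) and Cdkn2d (p19) overlapped, with log2 fold changes of -0.20 (SE 0.23) and 0.22 (SE 0.27). Cdkn2a had no count in any library. Relatives of Sfn, Lgals3 and Cldn4 had a median log2 fold change of 0.08 over 13 genes. Higher in mTOR Tg without overlap were 3 of the 13, and lower 1, beside 17.6% and 17% of all genes. Among the higher ones were the galectin genes Lgals4 and Lgals1, with Lgals4 at 10.6 and 9.0 CPM in mTOR Tg, against 5.38 and 5.51 CPM in WT. Lgals1 had 38 and 29 counts in mTOR Tg, against 14 and 8 counts in WT. The galectin genes Lgals8 and Lgals9, named after their values were seen, overlapped. None of the 13 passed the test over all genes.

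Markers of type I cells, the fate to which the transitional state leads, had positive log2 fold changes in 10 of 12 genes, with a median of 0.43. Relative to WT the median difference was 0.70 in the first and 0.35 in the second mTOR Tg replicate, and their summed level was 2400 and 2243 CPM of the raw totals in mTOR Tg, against 2063 and 2014 CPM in WT. Without overlap between genotypes, mTOR Tg was higher in 5 and lower in 0 of the 12, beside the 17.6% and 17% of all genes. Cav1, which encodes the caveolar coat protein, was at 24.6 and 18.2 CPM in mTOR Tg, against 11.4 and 14.6 CPM in WT. Pdpn, the podoplanin gene, was high in 1 mTOR Tg library alone, at 31.3 and 9.67 CPM in mTOR Tg, against 9.94 and 10.3 CPM in WT. Both are named after their values were seen. None of the 12 passed the test. Over 10 type II cell markers the median difference from WT was -0.36 and 0.14 in mTOR Tg replicates 1 and 2.

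**Figure D5:**
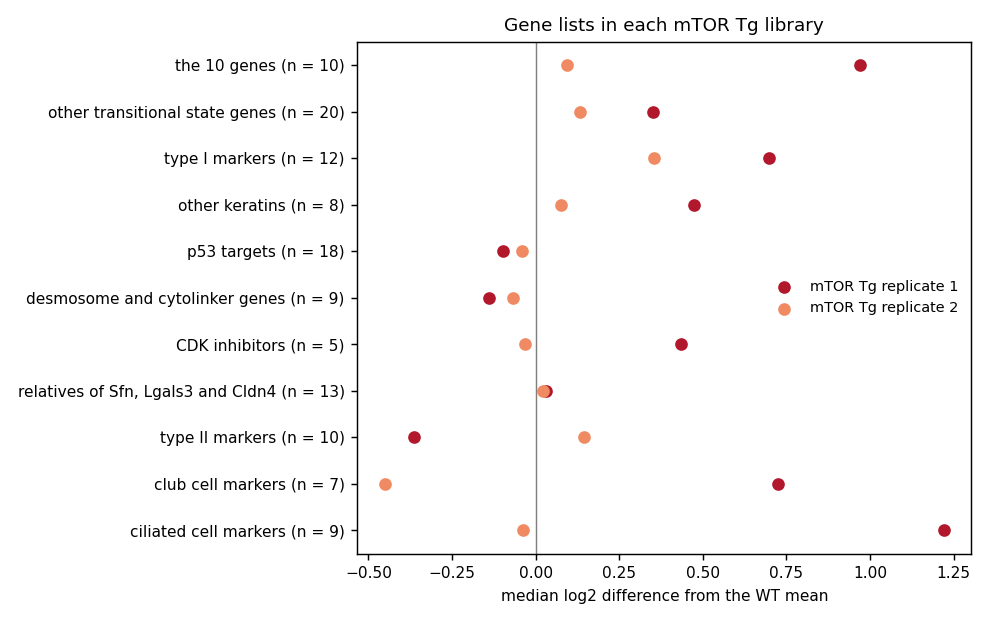
Median log2 difference from the WT mean (x axis) over the tested genes of each list in mTOR Tg replicates 1 (dark) and 2 (light). The 10 genes lie at 0.97 and 0.09, type I markers at 0.70 and 0.35, p53 targets at -0.10 and -0.04, and club cell markers at 0.73 and -0.45. No offsets for length and GC were used.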

How the data were processed

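Whole-number counts per gene symbol, as deposited by the authors, were taken from 1 table with 1 column per library. HISAT2, edgeR and the build mm10 are named in the submitters' processing notes, while the sources used here do not give the counting program, annotation or strandedness. Columns were matched to samples by the names in the labels. edgeR 4.0.16 in R 4.3.3 kept 13306 genes (filterByExpr, minimum count 10), scaled by TMM and ran the quasi-likelihood test on genotype alone. Benjamini-Hochberg adjustment ran over the whole set of tested genes, and 0.05 was the threshold. Standard errors were the log2 fold change divided by the square root of F, and the prior count of log2 CPM was 2. Sums of marker lists are CPM of raw library totals.

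Gene positions, and the length and GC of the best-ranked APPRIS transcript of each gene, came from GENCODE M21 (GRCm38, called mm10) by symbol, for 13116 of the 13306 genes. Promoters came from RefSeq. Intervals and the floor of 3 counts cover counting error only, since reads lacking molecular identifiers may be copies of one molecule. The 10 genes and all lists were chosen with earlier results of these data known. Named were all 10 genes, the 3 listed genes with the smallest p in each related list, other keratins with a mean of at least 1 CPM, and the 5 genes nearest to Krt8. Alternatives were 3 other scalings, 2 filters, limma-voom 3.58.1, DESeq2 1.42.0, 2 edgeR options, a replicate term, length and GC offsets (splines with 4 degrees of freedom each), an adjusted p of 0.1 and each library left out. The code was tested on simulated counts.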

Additional observations from a re-analysis of the deposited data

How the results depend on the processing

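The number of genes called in edgeR was 0 with all libraries and 11 to 6200 with 1 library left out, the highest without mTOR Tg replicate 2. DESeq2 called 12 genes and a fit with a replicate block called 37, in both cases with none of the 10. The block rests on numbers that only name the libraries. Differences between replicates 1 and 2 correlated at 0.0708 between genotypes across genes, which are not independent, and 2 pairs cannot show a pairing. Of the 10 genes, 0 were called with all libraries and 0 to 10 with 1 left out. With 1 library left out, between 4 and 10 of them were higher in every mTOR Tg library kept than in every WT library kept. The 4 were found without mTOR Tg replicate 1, beside 35% of all genes, and the 10 without mTOR Tg replicate 2, beside 44.5%. Without WT replicate 1 or 2 there were 6 and 5, beside 28.9% and 26.7%, and with scaling by library size alone 5, beside 15.3%. Over the fits that leave out 1 library, log2 fold changes of Krt8 spanned -0.12 to 0.91, those of Krt18 -0.0044 to 0.87, those of Krt19 -0.19 to 1.10 and those of Cldn4 -0.26 to 0.97. In each the negative value was that without mTOR Tg replicate 1, and the cause was not tested. No other alternative turned the direction of any of the 10, and the lowest adjusted p among them was 0.0767, for Sfn with the block. Scaling by library size moved the median of all genes to -0.05. Counts of the 10 genes were at least 238 in every library, so counting error was small beside the spread between the mTOR Tg libraries, except for Gdf15.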
